A study of Mus musculus with 24 samples.

Results

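Microvessels of the ipsilateral hemisphere were compared between mice 7 days after transient middle cerebral artery occlusion (tMCAO, here stroke) and mice 7 days after sham surgery. The comparison rested on 6 of the 24 libraries of the series, 3 stroke and 3 sham libraries, chosen by their labelled surgery, hemisphere and time point. The stroke mice had their middle cerebral artery closed with a filament for 60 min, while the sham mice had the same surgery with no period of closure. All animals were male C57BL/6J mice of 10 to 12 weeks with no genetic modification named in the labels, and all were perfused before the vessels were isolated. A library held vessels pooled from 3 hemispheres, which makes 9 animals per group. Vessels came from the whole hemisphere and therefore from infarcted, peri-infarct and intact tissue together. Contralateral libraries of both groups at 7 days and ipsilateral libraries at 24 h were used only where a stroke effect was compared between hemispheres or times.

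Brain microvessels form the blood-brain barrier, in which endothelial cells are sealed by tight junctions and are surrounded by a shared basement membrane, pericytes and the endfeet of astrocytes. After ischemia and reperfusion this barrier opens, leukocytes attach to venules, and phagocytes clear dead tissue over the following days. In the days after the acute phase, vessels begin to remodel, and endothelial cells and resident immune cells can divide. The comparison addresses which vessel-associated transcripts still differ from sham surgery when the acute phase has passed.

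The deposited values are reads per gene after the authors' scaling of each library by its size factor, rounded to whole numbers and called normalized counts here. Their totals lay between 15924780 and 18787932 per library in these 6 libraries. All differences are given as log2 of the normalized count plus 1, stroke minus sham, with the standard error (SE) of limma's fit over 8 groups of 3 libraries. A gene was called higher or lower when its Benjamini-Hochberg adjusted p from limma was under 0.05 and the difference was more than 1.5-fold in either direction. Values per library are normalized counts in the order of the library numbers. Each log2 value without another label below is a difference of this kind, each adjusted p comes from limma with Benjamini-Hochberg adjustment over 15982 tested genes, and n is 3 libraries per group throughout. The paper states that more samples were made per group, and that samples found to be outliers were left out, leaving 3 per group. What this removal did to the spread within groups was not tested. Nothing states that the libraries of a group came from separate operation days, so the p-values measure the spread between these retained pools.

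The 15 endothelial marker genes of the list were all tested, and Cldn5, the main claudin of brain endothelium, was between 51537 and 73846 normalized counts in every library. Summed normalized counts of the endothelial list were between 514405 and 656677 in the stroke libraries and between 451103 and 601813 in the sham libraries, and these ranges overlapped. Neuronal, glial, smooth muscle, choroid plexus and blood cell transcripts were also present, so the libraries hold vessels with adhering tissue. Some libraries stood apart. Sham library 3 had the highest astrocyte sum (35849, against 17534 and 19172 in the other sham libraries) and a neutrophil sum of 18171 against 882 in sham library 2 and 6660 in sham library 1. Stroke library 1 had the highest neutrophil sum (40802). On the first principal component of the 6 libraries, which held 60.3% of the variance, the stroke libraries lay at -68.8, -47.1 and -30.6 and the sham libraries at 41.4, 53.2 and 52.0, so surgery separated them. Results that rest on 1 of these libraries are given with and without it.

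**Figure D1:**
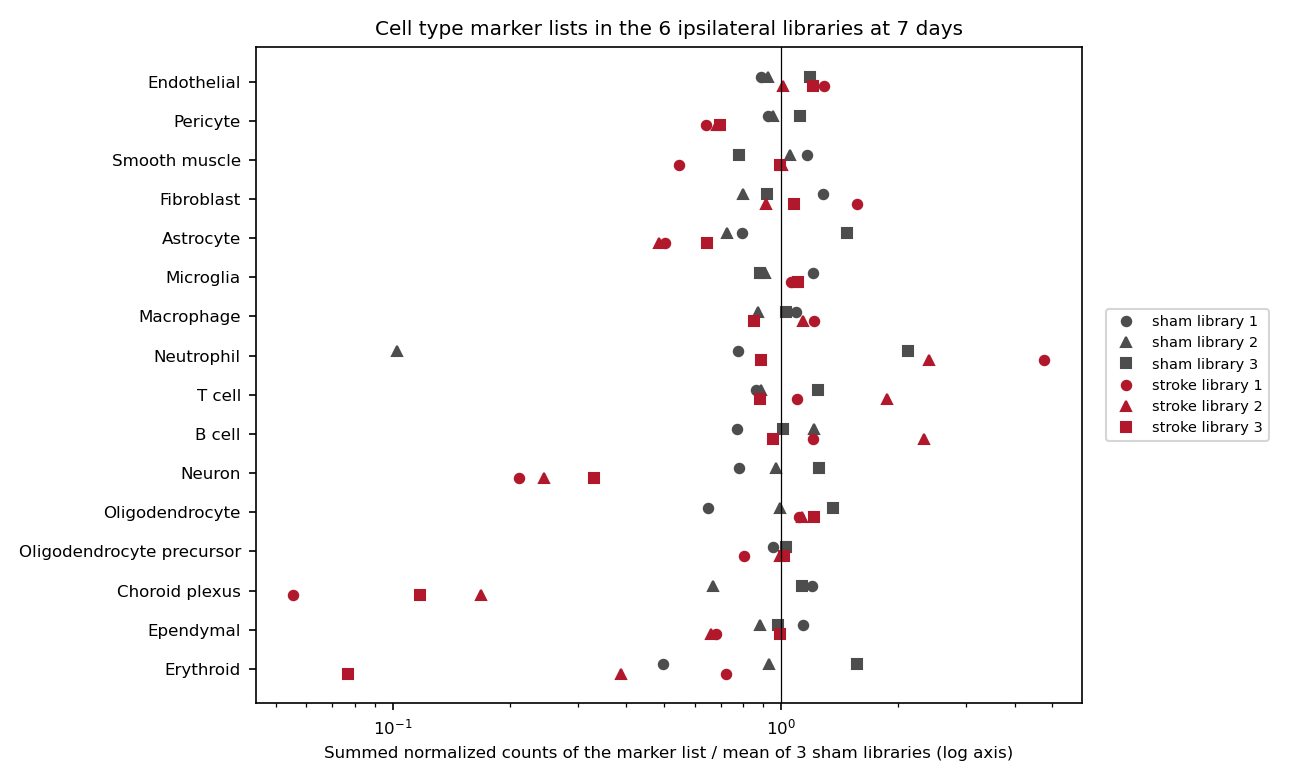
Summed normalized counts of 16 cell type marker lists in each of the 6 ipsilateral libraries at 7 days, divided by the mean of the 3 sham libraries (log axis, grey sham, red stroke, one symbol per library number). Neuron, choroid plexus, astrocyte and pericyte sums of the stroke libraries lie below every sham library, while endothelial sums overlap and neutrophil sums are spread widely in both groups.

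At 7 days 2114 of 15982 genes were called, which is 13.2% of those tested. Of these, 523 genes (3.27%) were higher and 1591 (9.95%) lower after stroke. Without any threshold on the size of the difference, 4687 genes (29.3%) had an unadjusted p under 0.05. The higher genes were changed by a median of 1.04 on the log2 scale and the lower genes by 1.73, and 596 lower but only 74 higher genes had a difference beyond 2. Stroke and sham libraries did not overlap for 496 of the 523 higher and for 1567 of the 1591 lower genes. Over all tested genes 13.4% did not overlap in the higher and 16.6% in the lower direction. The call rests on the difference between these same libraries, so the lack of overlap largely follows from it. Protein-coding genes made up 445 of the higher and 1526 of the lower genes. Transcripts of the lower genes were longer (median 3980 bases) than those of the higher genes (2586) and of the genes that were not called (3188). After each library was corrected for transcript length and GC content, 1039 genes were higher and 1467 lower, so that the higher genes made up 41.5% of the calls instead of 24.7% and the median over all genes was 0.137 instead of 0.025. Without stroke library 1, 329 genes were higher and 1131 lower.

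**Figure D2:**
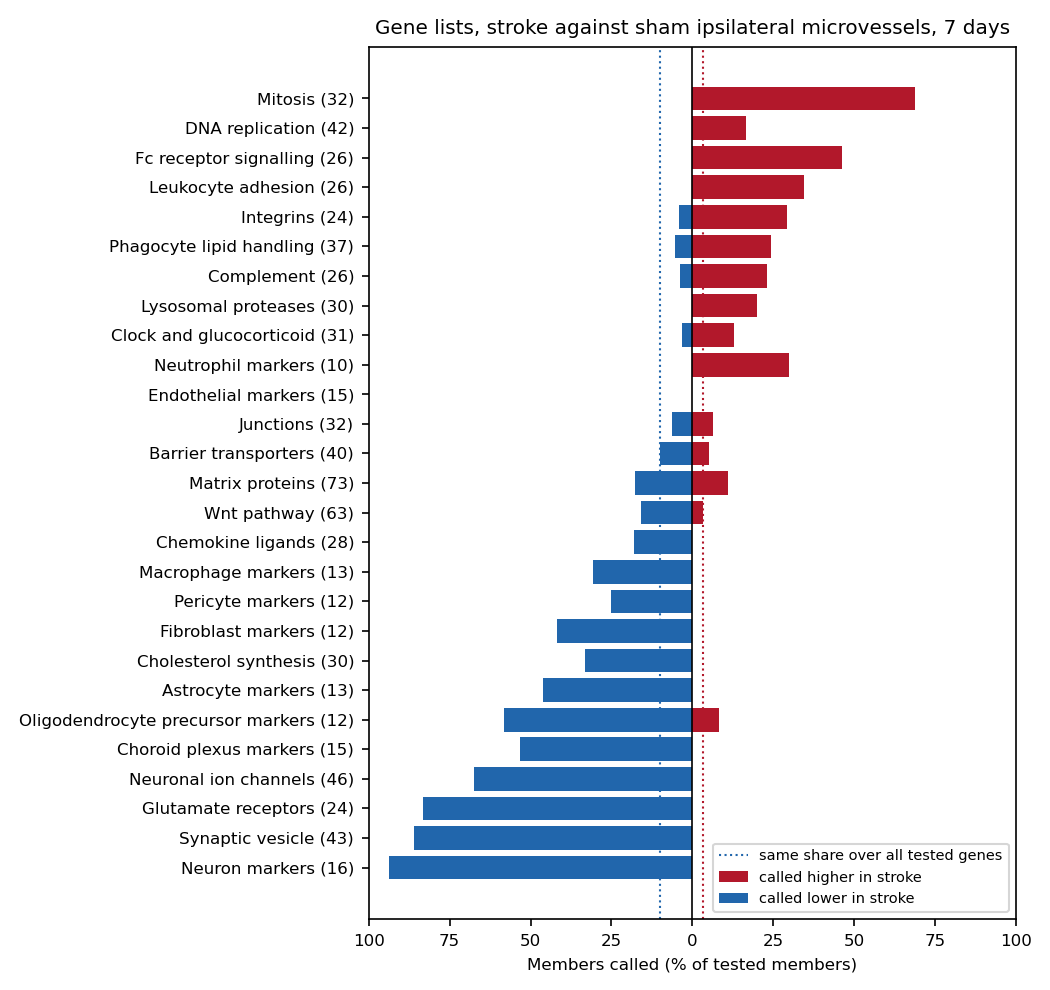
Share of the tested members of 27 gene lists that were called higher (red, to the right) or lower (blue, to the left) in stroke than in sham ipsilateral microvessels at 7 days, with the number of tested members in brackets. Dotted lines mark the shares over all tested genes, 3.27% higher and 9.95% lower. Mitosis genes stand out to the right and neuronal lists to the left, and none of the 15 endothelial markers was called.

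Most genes of a mitosis list were higher after stroke. Of 32 tested mitosis genes, 22 were called higher and 0 lower, with a median difference of 1.42, against 3.27% called higher and a median of 0.025 over all tested genes. In all 32 the fitted difference was above 0, and 27 had no overlap between the libraries (13.4% of all tested genes had none in this direction). Most are transcripts of low abundance. The minimum mean was taken over all 24 libraries, the stroke libraries included, so a scarce gene could pass it through its stroke values. Aurkb, for example, passed with a mean of 5.38. Without a minimum 26 genes of the list were called, with a median of 1.42. With a minimum mean of 20 in place of 5 normalized counts 7 were called, with a median of 0.905. With the stroke and sham groups alone in the fit, 13 were called. Genes of DNA replication were called higher in 7 of 42 cases (4 with a minimum mean of 20 and 11 against the 6 sham libraries) with a median of 0.35, and 0 were lower. The KEGG terms of the deposited annotation had smaller shares. For Cell cycle 9 of 114 genes were higher (7.89%) and 0 lower, with a median of 0.11. For the KEGG term DNA replication 2 of 35 were higher (5.71%) and 0 lower, with a median of 0.12.

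Top2a, the topoisomerase that untangles chromosomes before they part, had 131, 112 and 98 normalized counts in the stroke libraries and 19, 10 and 24 in the sham libraries. Every stroke library lay above every sham library, and the difference was 2.69 ± 0.59 (adjusted p = 0.00315). Ccna2, the cyclin that acts from DNA replication into mitosis, had 67, 79 and 43 normalized counts in the stroke libraries and 7, 13 and 10 in the sham libraries, a difference of 2.53 ± 0.48 (adjusted p = 0.000924). Aurkb, a kinase that corrects the attachment of chromosomes to the spindle, was scarce, with 33, 25 and 17 after stroke and 3, 3 and 1 after sham surgery, and differed by 2.99 ± 0.46 (adjusted p = 0.000136). None of these 3 genes had overlapping groups. Among the genes that make DNA building blocks, Rrm2, a subunit of ribonucleotide reductase, had 48, 58 and 55 normalized counts in the stroke libraries and 5, 12 and 11 in the sham libraries and a difference of 2.48 ± 0.45 (adjusted p = 0.000635). Tk1, thymidine kinase, was 44, 29 and 35 after stroke and 2, 9 and 3 after sham surgery, with a difference of 2.89 ± 0.64 (adjusted p = 0.00353). The DNA polymerase subunit Pole differed by 1.7 ± 0.41 (adjusted p = 0.00623).

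Contralaterally the mitosis genes had a median stroke effect of -0.1, and 0 were called. The difference between the hemispheres itself was called for 10 of the 32 genes, all higher ipsilaterally, beside 1.19% of all tested genes. Ccna2 had a hemisphere difference of 2.94 ± 0.68 (adjusted p = 0.00634), Rrm2 of 2.42 ± 0.64 (adjusted p = 0.0166) and Aurkb of 5.18 ± 0.65 (adjusted p = 4.72e-05). The value of Aurkb holds an ipsilateral effect of 2.99 and a contralateral one of -2.2 ± 0.46, which was not called (adjusted p = 0.107). At 24 h the same list had a median ipsilateral stroke effect of 0.31. Of its genes 2 were called higher and 1 lower at that time, beside 10% and 8.23% of all tested genes. Between 7 days and 24 h, 7 mitosis genes differed in their stroke effect, all with the larger effect at 7 days, beside 2.43% of all tested genes. For Ccna2 this difference between the times was 2.22 ± 0.68 (adjusted p = 0.0432), while for Top2a (1.66 ± 0.84, adjusted p = 0.215) it was not called. Of the 42 genes of the DNA replication list 15 were called higher at 24 h (10% of all tested genes were), with a median of 0.49. In the test of the times 0 had a higher and 2 a lower effect at 7 days. Whether dividing cells were endothelial cells, microglia or others cannot be told apart in bulk RNA, and neither can more cells of a type and more RNA per cell, for these and for all following transcripts.

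Promoters of many mitotic genes carry CCAAT boxes and a cell cycle homology region (CHR, TTTGAA), and through the CHR they are held silent in resting cells. In the 250 bases upstream of the RefSeq start (GRCm38.p6), TTTGAA on either strand was found in 11 of the 27 mitosis genes that have an entry (40.7%), against 18.3% of 27025 genes. CCAAT on either strand was found in 21 of 27 (77.8%, against 37.5%), and both motifs together in 10 (37%, against 6.45%). The E2F motifs TTTCCCGC and TTTGGCGC on either strand were in 0 of the 27 mitosis promoters and in 7 of 34 DNA replication promoters (20.6%, against 1.51% of all). Promoters of 32 neuronal channel genes held both CHR and CCAAT in 6.25%. The following upstream sequences were taken from the entries kept for printing, which leave out part of the genes. They are those of the 4 called mitosis genes with the largest rise among these that hold both motifs. Aurkb and Ccna2 rose more than Mki67 but have no entry. The sequences are printed to show where the motifs lie, 5′ to 3′ on the strand of the gene. Capitals mark TTTGAA or TTCAAA and CCAAT or ATTGG, none of which overlap. Mki67, Ccnb2 and Cdk1 were named for this purpose after their values were seen. These matches are a description of letters, not of bound sites.
Top2a, chr11:99024190-99024439, minus strand: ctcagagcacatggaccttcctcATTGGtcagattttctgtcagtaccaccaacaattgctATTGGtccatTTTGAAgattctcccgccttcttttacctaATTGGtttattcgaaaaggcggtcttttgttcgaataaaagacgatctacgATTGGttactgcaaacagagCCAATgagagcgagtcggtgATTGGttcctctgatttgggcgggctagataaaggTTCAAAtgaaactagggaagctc
Mki67, chr7:135716380-135716629, minus strand: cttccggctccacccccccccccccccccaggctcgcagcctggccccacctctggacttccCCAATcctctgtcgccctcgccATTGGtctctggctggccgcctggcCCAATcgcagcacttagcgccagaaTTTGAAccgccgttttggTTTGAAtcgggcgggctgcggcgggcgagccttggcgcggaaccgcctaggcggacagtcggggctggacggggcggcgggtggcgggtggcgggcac
Ccnb2, chr9:70421555-70421804, minus strand: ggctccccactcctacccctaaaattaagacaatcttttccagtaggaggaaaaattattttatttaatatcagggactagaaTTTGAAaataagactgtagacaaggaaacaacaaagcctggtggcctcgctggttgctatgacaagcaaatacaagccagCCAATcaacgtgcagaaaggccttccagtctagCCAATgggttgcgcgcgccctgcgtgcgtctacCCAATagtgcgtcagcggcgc
Cdk1, chr10:69352913-69353162, minus strand: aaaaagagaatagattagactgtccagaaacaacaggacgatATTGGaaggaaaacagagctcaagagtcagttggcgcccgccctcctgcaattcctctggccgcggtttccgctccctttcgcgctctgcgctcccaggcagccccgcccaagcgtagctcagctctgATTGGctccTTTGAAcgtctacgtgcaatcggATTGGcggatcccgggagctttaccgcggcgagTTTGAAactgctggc
The Top2a promoter holds 6 CCAAT or ATTGG matches and 2 CHR matches, and those of Mki67, Ccnb2 and Cdk1 hold 3 CCAAT or ATTGG matches each, with 2 CHR matches in Mki67 and Cdk1 and 1 in Ccnb2. In Ccnb2 the CHR match begins 167 bases upstream of the start, farther out than its CCAAT matches at 87, 54 and 21 bases. Mki67, whose protein coats mitotic chromosomes, had 62, 87 and 72 normalized counts in the stroke libraries and 11, 14 and 14 in the sham libraries and differed by 2.41 ± 0.42 (adjusted p = 0.00041). Cdk1, the kinase that starts mitosis, differed by 1.97 ± 0.34 (adjusted p = 0.000326) and its partner Ccnb2, cyclin B2, by 2.21 ± 0.5 (adjusted p = 0.00418).

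**Figure D3:**
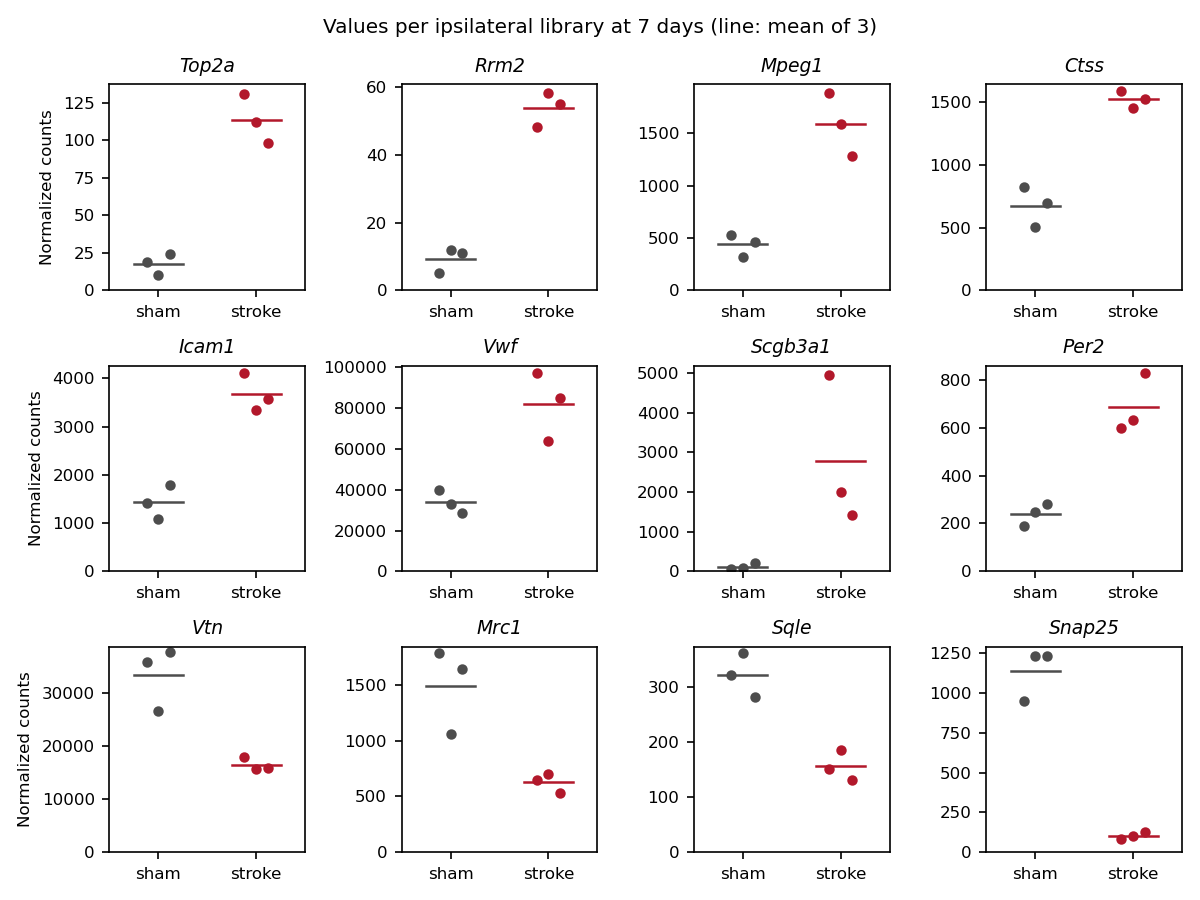
Normalized counts of 12 genes in each of the 3 sham (grey) and 3 stroke (red) ipsilateral libraries at 7 days, with the mean as a line (linear axes from 0). In each of the 12 genes the 3 stroke libraries lie outside the range of the 3 sham libraries, above it for the first 8 and below it for Vtn, Mrc1, Sqle and Snap25.

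Part of the phagocyte genes were higher as well. The list of Fc receptor signalling, through which phagocytes bind antibody-coated particles, had 12 of 26 genes higher and 0 lower, with a median of 0.85. The count of higher genes was 6 without stroke library 1 and 6 without sham library 2. Of 37 genes of phagocyte lipid handling, 9 were higher and 2 lower, and the number of higher genes was 5 without stroke library 1 and 5 without sham library 2. Lysosomal proteases (6 of 30) and complement genes (6 of 26) were higher in part, beside 3.27% of all genes. Broader KEGG terms changed in both directions. Fc gamma R-mediated phagocytosis had 12 of 85 genes higher (14.1%) and 8 lower (9.41%), with a median of 0.07. Phagosome had 11 of 133 higher (8.27%) and 14 lower (10.5%), with a median of 0.03. Lysosome had 12 of 112 higher (10.7%) and 2 lower (1.79%), with a median of 0.05. Over all genes 9.95% were lower. At 24 h 20 genes of the Fc receptor list were already called higher (10% of all tested genes were), and its stroke effect differed between the times for 0 genes.

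Cd5l, a secreted protein of macrophages that binds lipids and cell debris, had the largest rise of all described genes, with 99, 59 and 73 normalized counts in the stroke libraries and 4, 0 and 1 in the sham libraries (log2 5.15 ± 0.55, adjusted p = 4.67e-06). It was close to absent in each sham library. Contralaterally its stroke effect was 0.00 ± 0.55, and at 24 h it was 0.86 ± 0.55, and both the hemispheres (5.15 ± 0.77, adjusted p = 0.000178) and the times (4.28 ± 0.77, adjusted p = 0.00173) differed. Mpeg1, a pore-forming protein of the phagosome, had 1889, 1593 and 1282 normalized counts in the stroke libraries and 534, 324 and 464 in the sham libraries and differed by 1.86 ± 0.19 (adjusted p = 3.04e-06). Ctss, the protease cathepsin S, had 1588, 1458 and 1525 normalized counts in the stroke libraries and 826, 502 and 700 in the sham libraries (log2 1.2 ± 0.16, adjusted p = 4.18e-05). In both genes every stroke library lay well above the highest sham library. Their contralateral stroke effects were -0.13 ± 0.19 and -0.1 ± 0.16, and the hemispheres differed by 1.99 ± 0.27 for Mpeg1 (adjusted p = 7.21e-05) and by 1.3 ± 0.23 for Ctss (adjusted p = 0.000738).

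Fcgr4, an activating Fc receptor, had normalized counts of 226, 167 and 79 after stroke and 28, 21 and 53 after sham surgery and differed by 2.16 ± 0.43 (adjusted p = 0.00139). Ncf1, a subunit of the phagocyte oxidase, differed by 1.23 ± 0.23 (adjusted p = 0.000839). Cst7, an inhibitor of lysosomal cathepsins known from activated microglia, was 29, 28 and 37 after stroke and 2, 2 and 7 after sham surgery (log2 2.95 ± 0.73, adjusted p = 0.00786). These 3 genes had no overlap between the groups. The integrin Itgax (CD11c) rose by 1.75 ± 0.31 (adjusted p = 0.000445) and its partner Itgb2 (CD18), the shared chain of the leukocyte integrins, had 588, 699 and 421 normalized counts in the stroke libraries and 196, 155 and 240 in the sham libraries (log2 1.52 ± 0.23, adjusted p = 0.000124). Cfi, a protease that inactivates C3b, was 42, 48 and 34 after stroke and 3, 6 and 3 after sham surgery and differed by 3.12 ± 0.65 (adjusted p = 0.00192), while complement C2 was lower (log2 -1.02 ± 0.33, adjusted p = 0.0375). Samsn1, an adaptor of leukocytes (log2 1.08 ± 0.23, adjusted p = 0.00226), and the lysosomal protease Lgmn (log2 0.95 ± 0.19, adjusted p = 0.00169) were also higher. C2 (log2 -0.68, adjusted p = 0.118) was not called against the 6 ipsilateral sham libraries of both times. C2 (adjusted p = 0.0613) was not called with the compared groups alone in the fit.

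The calls of several phagocyte genes did not hold with each library left out. Gpnmb, a glycoprotein of lipid-laden phagocytes, had 553, 310 and 396 normalized counts in the stroke libraries and 116, 4 and 46 in the sham libraries and differed by 3.76 ± 1.27 (adjusted p = 0.0471). All stroke values were above all sham values, but the spread of the sham libraries was wide, and the adjusted p was 0.243 without sham library 2, 0.067 without sham library 3, 0.134 without stroke library 1, 0.0736 without stroke library 2 and 0.0949 without stroke library 3. Clec7a, the receptor dectin-1, differed by 1.21 ± 0.32 (adjusted p = 0.011, 0.0586 without sham library 2 and 0.0651 without stroke library 1). For the integrin Itgal (CD11a) the difference was 1.56 ± 0.46 (adjusted p = 0.0234, 0.108 without sham library 1, 0.0627 without sham library 2, 0.0613 without stroke library 1 and 0.106 without stroke library 2). The oxidase subunit Ncf4 (log2 1.28 ± 0.34, adjusted p = 0.013, 0.0517 without sham library 1 and 0.085 without stroke library 1) and the protease Ctsw of cytotoxic lymphocytes (log2 1.6 ± 0.41, adjusted p = 0.01, 0.0685 without sham library 1 and 0.0545 without stroke library 1) were lost in the same way. C2 gave an adjusted p of 0.069 without sham library 1, 0.0781 without sham library 2, 0.104 without sham library 3, 0.155 without stroke library 1 and 0.0705 without stroke library 3. Ctsw (adjusted p = 0.0508) was not called with the compared groups alone in the fit.

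Among the markers of microglia, Selplg, the ligand of selectins, was higher (log2 1.16 ± 0.36, adjusted p = 0.028, 0.0554 without sham library 1, 0.141 without sham library 2, 0.103 without stroke library 1 and 0.0717 without stroke library 2), whereas Sall1, the transcription factor that keeps microglia in their resting identity, was lower (65, 76 and 82 normalized counts in the stroke libraries and 165, 111 and 134 in the sham libraries, a difference of -0.86 ± 0.21, adjusted p = 0.0071). Over the 12 microglia markers the median was -0.13, with 2 higher and 1 lower. Markers of perivascular and other macrophages were lower in part. Of 13 markers 4 were lower and 0 higher, beside 9.95% of all genes called lower, and the count was 2 without stroke library 3 and 2 without sham library 1. Mrc1, the mannose receptor of perivascular macrophages, had 643, 704 and 531 normalized counts in the stroke libraries and 1778, 1055 and 1642 in the sham libraries (log2 -1.23 ± 0.26, adjusted p = 0.00255). Pf4 had 117, 112 and 106 normalized counts in the stroke libraries and 359, 260 and 475 in the sham libraries (log2 -1.66 ± 0.28, adjusted p = 0.000343), and the membrane protein Ms4a7 differed by -0.99 ± 0.28 (adjusted p = 0.0194, 0.0794 without sham library 1 and 0.115 without stroke library 3). For Mrc1 and Pf4 no stroke library reached the lowest sham library. The stroke effect on Pf4 was 1.03 ± 0.28 at 24 h and differed between the times by -2.69 ± 0.4 (adjusted p = 0.000349). Ms4a7 (adjusted p = 0.0569) was not called with the compared groups alone in the fit.

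Chemokine ligands attract leukocytes. Of 28 tested ligands 5 were lower and 0 higher, beside 9.95% of all genes called lower, and the count of lower ones was 3 without stroke library 2 and 9 without sham library 2. At 24 h 13 of them had been called higher (10% of all tested genes were), with a median of 1.4 against -0.24 at 7 days, and 7 differed between the times. Ccl24, a ligand for eosinophils made by macrophages, had 17, 19 and 24 normalized counts in the stroke libraries and 239, 72 and 584 in the sham libraries (log2 -3.38 ± 0.64, adjusted p = 0.000909). Ccl7, a ligand for monocytes, had 11, 9 and 10 normalized counts in the stroke libraries and 125, 22 and 557 in the sham libraries (log2 -3.42 ± 1.1, adjusted p = 0.0367). In both ligands sham library 3 was the highest and sham library 2 the lowest of the sham libraries, and the adjusted p of Ccl7 was 0.0877 without sham library 1, 0.19 without sham library 3, 0.0872 without stroke library 1, 0.0801 without stroke library 2 and 0.0795 without stroke library 3. Interferon-stimulated genes were called in 1 of 47 cases as higher (the phosphohydrolase Samhd1) and in 1 as lower (the guanylate-binding protein Gbp5), 2.13% each. Of 27 antigen presentation genes 1 was higher (3.7%) and 0 lower. These shares stand beside 3.27% higher and 9.95% lower over all genes. The higher gene was the lipid-presenting Cd1d1 (log2 1.38 ± 0.42, adjusted p = 0.027, 0.0766 without sham library 1, 0.1 without sham library 3, 0.0569 without stroke library 1, 0.0825 without stroke library 2 and 0.0532 without stroke library 3). Samhd1, which degrades nucleotides, had 3870, 3718 and 4390 normalized counts in the stroke libraries and 2393, 2505 and 2795 in the sham libraries (log2 0.64 ± 0.12, adjusted p = 0.00109). Its difference was just beyond the 1.5-fold limit and fell below it without stroke library 3, at 0.57. Gbp5 differed by -0.66 ± 0.19 (adjusted p = 0.0205, 0.135 without sham library 3 and 0.0595 without stroke library 3). Gbp5 (log2 -0.04, adjusted p = 0.949) was not called against the 6 ipsilateral sham libraries. Ccl7 (adjusted p = 0.0646) and Gbp5 (adjusted p = 0.0832) were not called with the compared groups alone in the fit.

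Transcripts of granulocytes were high in some libraries of both groups. Of 10 tested neutrophil markers 3 were called higher and the median was 2.23, beside 3.27% of all genes called higher, but the count was 1 without stroke library 1, 0 without stroke library 2, 1 without sham library 1, 1 without sham library 2 and 8 without sham library 3. It was also 1 with a minimum mean of 20, 1 with the compared groups alone and 9 with array weights. The defining markers S100a8 (1271, 756 and 142 normalized counts in the stroke libraries and 34, 71 and 469 in the sham libraries) and S100a9 (1927, 1131 and 324 normalized counts in the stroke libraries and 65, 130 and 772 in the sham libraries) overlapped between the groups and were not called (log2 2.29 ± 1.01, adjusted p = 0.136, 0.0335 without sham library 3 and 0.0482 without stroke library 3, and log2 2.24 ± 1.02, adjusted p = 0.145, 0.042 without sham library 3). Lcn2, lipocalin 2, which made up most of the neutrophil sums and is also made by reactive endothelium and astrocytes, had 35743, 17860 and 6751 normalized counts in the stroke libraries and 6448, 573 and 16388 in the sham libraries (log2 2.05 ± 1.06, adjusted p = 0.207) and overlapped too. Csf3r, the receptor of the granulocyte growth factor, differed by 1.66 ± 0.48 (adjusted p = 0.021, 0.0917 without sham library 1, 0.0841 without sham library 2, 0.0999 without stroke library 1 and 0.0674 without stroke library 2) and Il1r2, a decoy receptor of interleukin 1, by 2.93 ± 1.0 (adjusted p = 0.0486, 0.115 without sham library 1, 0.241 without sham library 2, 0.23 without stroke library 1 and 0.0758 without stroke library 2). Ltf, lactoferrin, was at the detection limit, with 9, 28 and 6 after stroke and 3, 3 and 3 after sham surgery (log2 1.66 ± 0.45, adjusted p = 0.0137, 0.0901 without stroke library 2). The same marker list had a contralateral median of 1.77, and its contralateral sums were 27517, 18111 and 6603 after stroke and 3740, 727 and 16580 after sham surgery. T cell markers were scarce. Of 8 tested ones 0 were called higher and 2 lower, while the list had a median of 0.53 and differences of up to 1.76. The called ones were the receptor chain Trac (19, 29 and 29 after stroke and 57, 50 and 62 after sham surgery, a difference of -1.12 ± 0.3, adjusted p = 0.0143, 0.0849 without stroke library 1) and Cd4 (log2 -0.87 ± 0.26, adjusted p = 0.0272, 0.0841 without sham library 1, 0.0644 without sham library 2, 0.0502 without sham library 3, 0.176 without stroke library 1 and 0.0576 without stroke library 3). Il1r2 (log2 2.36, adjusted p = 0.0542), Ltf (log2 1.15, adjusted p = 0.0562) and Trac (log2 -0.51, adjusted p = 0.332) were not called against the 6 ipsilateral sham libraries. Il1r2 (adjusted p = 0.129), Ltf (adjusted p = 0.102) and Cd4 (adjusted p = 0.119) were not called with the compared groups alone in the fit.

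Leukocyte adhesion genes were called higher in 9 of 26 cases, among them the leukocyte integrins Itgax and Itgal, and lower in 0, beside 3.27% of all genes called higher, and the count of higher genes was 3 without stroke library 1, 4 without stroke library 2, 4 without sham library 1 and 5 without sham library 2. Icam1, the endothelial ligand of leukocyte integrins, had 4118, 3345 and 3572 normalized counts in the stroke libraries and 1412, 1095 and 1788 in the sham libraries (log2 1.38 ± 0.17, adjusted p = 1.64e-05). Vwf, the von Willebrand factor that tethers platelets, had 97222, 63555 and 84995 normalized counts in the stroke libraries and 39844, 32851 and 28592 in the sham libraries (log2 1.27 ± 0.18, adjusted p = 5.37e-05). For both genes the lowest stroke library lay well above the highest sham library. The effect on Vwf was 0.08 ± 0.18 at 24 h and differed between the times by 1.19 ± 0.25 (adjusted p = 0.00544). Icam1 was also higher contralaterally after stroke (1.2 ± 0.17, adjusted p = 0.00761), and the hemispheres did not differ beyond the error (0.18 ± 0.24, adjusted p = 0.765).

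Ackr1, the chemokine receptor that marks venules, had 20573, 12530 and 4740 normalized counts in the stroke libraries and 2457, 437 and 4342 in the sham libraries (log2 2.68 ± 0.87, adjusted p = 0.0377). Its groups were separated only by the gap between stroke library 3 and sham library 3, and the adjusted p was 0.0525 without sham library 1, 0.218 without sham library 2, 0.163 without stroke library 1 and 0.0891 without stroke library 2. Lrg1, a glycoprotein made by endothelium and neutrophils that acts in angiogenesis, had 25182, 15822 and 10590 normalized counts in the stroke libraries and 3232, 584 and 5949 in the sham libraries (log2 2.85 ± 0.75, adjusted p = 0.0117, 0.0878 without sham library 2 and 0.0623 without stroke library 1). Both genes also had large contralateral stroke effects, 2.45 ± 0.87 for Ackr1 and 2.1 ± 0.75 for Lrg1, which were not called. In both genes sham library 2 had the lowest value and stroke library 1 the highest, as it did for the neutrophil sum, and the part of that in the result was not tested. Ackr1 (adjusted p = 0.0879) and Lrg1 (adjusted p = 0.0532) were not called with the compared groups alone in the fit.

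Genes of vessel growth changed in both directions. Of 53 angiogenesis genes 3 were higher and 3 lower, near the shares over all genes, and the lower ones were 6 without sham library 3. The count of higher genes was 1 with the compared groups alone, 5 with array weights and 10 with the length and GC correction, and that of lower genes 5 with array weights, 1 against the 6 sham libraries and 1 with the length and GC correction. Pgf, placental growth factor, had 1223, 727 and 1019 normalized counts in the stroke libraries and 494, 409 and 552 in the sham libraries (log2 1.01 ± 0.21, adjusted p = 0.00218). Aplnr, the apelin receptor of sprouting and venous endothelium, had 246, 389 and 207 normalized counts in the stroke libraries and 142, 109 and 43 in the sham libraries (log2 1.62 ± 0.53, adjusted p = 0.0408, 0.0599 without sham library 2, 0.196 without sham library 3, 0.0863 without stroke library 1 and 0.137 without stroke library 2), and it differed between the hemispheres by 2.67 ± 0.75 (adjusted p = 0.0252). Part of this was a contralateral effect of -1.05 ± 0.53, which was not called. Vegfa, the main vascular growth factor, was lower, with 84, 102 and 65 normalized counts in the stroke libraries and 252, 171 and 280 in the sham libraries (log2 -1.47 ± 0.34, adjusted p = 0.00526). The lymphatic growth factor Vegfd was called higher at 0.94 ± 0.32 (adjusted p = 0.0499) but not once any library was left out (0.108 without sham library 1, 0.0588 without sham library 2, 0.146 without sham library 3, 0.0644 without stroke library 1, 0.0872 without stroke library 2 and 0.164 without stroke library 3). A pair of arterial genes were lower, the Notch ligand Dll4 by -0.64 ± 0.19 (adjusted p = 0.0246, 0.116 without sham library 3, 0.0516 without stroke library 2 and 0.0828 without stroke library 3) and the gap junction protein Gja5 by -0.65 ± 0.16 (adjusted p = 0.00814, 0.0497 without sham library 1). Gja5 had been higher at 24 h (1.38 ± 0.16), and its effect differed between the times by -2.03 ± 0.23 (adjusted p = 3.71e-05). Vegfd (log2 0.67, adjusted p = 0.1), Dll4 (log2 -0.57, adjusted p = 0.0136) and Gja5 (log2 -0.4, adjusted p = 0.0973) were not called against the 6 ipsilateral sham libraries, Dll4 because it missed the 1.5-fold limit. Aplnr (adjusted p = 0.0543) and Vegfd (adjusted p = 0.0652) were not called with the compared groups alone in the fit.

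Tight and adherens junctions seal the endothelium. Of 32 junction genes 2 were higher and 2 lower, beside 3.27% and 9.95% of all genes, and the median was -0.04. Cldn5 had 73846, 60700 and 72163 normalized counts in the stroke libraries and 62489, 61177 and 51537 in the sham libraries (log2 0.24 ± 0.16, adjusted p = 0.36), and Ocln, occludin, had 8089, 7234 and 8307 normalized counts in the stroke libraries and 7402, 8118 and 7988 in the sham libraries (log2 0.01 ± 0.12, adjusted p = 0.98). The groups overlapped for both, as they did for Pecam1 (log2 0.27 ± 0.18, adjusted p = 0.369), the adhesion protein between endothelial cells. The growth factor receptor Flt1 had a difference of -0.24 ± 0.2 (adjusted p = 0.468). Nectin2, an adherens junction protein, was higher, with 1224, 927 and 990 normalized counts in the stroke libraries and 639, 595 and 513 in the sham libraries (log2 0.84 ± 0.13, adjusted p = 0.000153), and the scaffold protein Magi1 was just beyond the limit (log2 0.61 ± 0.14, adjusted p = 0.00408), which it missed without stroke library 1, stroke library 3 or sham library 2 although the adjusted p stayed between 0.0193 and 0.0246. Cgn, cingulin (3, 6 and 3 after stroke and 17, 37 and 11 after sham surgery, log2 -2.07 ± 0.55, adjusted p = 0.0132, 0.084 without sham library 2 and 0.0566 without stroke library 1), and Cldn1 (13, 28 and 10 after stroke and 59, 53 and 88 after sham surgery, log2 -2.0 ± 0.59, adjusted p = 0.022, 0.0788 without sham library 3, 0.0803 without stroke library 1 and 0.091 without stroke library 3), both also known from epithelia, were lower at low abundance. Magi1 (log2 0.33, adjusted p = 0.142) was not called against the 6 ipsilateral sham libraries.

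Of 40 barrier transporters 2 were called higher and 4 lower (5% and 10%, beside 3.27% and 9.95% of all genes), with a median of -0.11. At 24 h 17 had been called lower (8.23% of all genes were at that time). Slc2a1, the glucose transporter of the barrier, had 216414, 144551 and 194319 normalized counts in the stroke libraries and 88230, 89902 and 206001 in the sham libraries (log2 0.63 ± 0.34, adjusted p = 0.233, 0.043 without sham library 3), and sham library 3 lay within the stroke range. Slco2b1, an organic anion transporter, was higher, with 9456, 7608 and 6629 normalized counts in the stroke libraries and 3455, 4420 and 5515 in the sham libraries (log2 0.83 ± 0.21, adjusted p = 0.00893, 0.0584 without sham library 1 and 0.0602 without stroke library 1), and so was Ager, the receptor for advanced glycation products that carries amyloid into the brain (log2 0.97 ± 0.23, adjusted p = 0.00659). Lower were the monoamine transporter Slc29a4 (log2 -0.94 ± 0.22, adjusted p = 0.00585), the alkaline phosphatase Alpl (log2 -1.09 ± 0.32, adjusted p = 0.0227, 0.122 without sham library 2 and 0.148 without stroke library 1) and the GABA transporter Slc6a13, which fibroblasts of the vessel wall also express (907, 680 and 693 normalized counts in the stroke libraries and 2626, 1918 and 1421 in the sham libraries, log2 -1.35 ± 0.33, adjusted p = 0.0072). Alpl had a contralateral stroke effect of -1.04 ± 0.32, close to the ipsilateral one. Alpl was not called against the 6 ipsilateral sham libraries (log2 -0.12, adjusted p = 0.892), nor with the compared groups alone in the fit (adjusted p = 0.0648).

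Wnt signals maintain barrier properties of brain endothelium. Of 63 pathway genes 2 were higher and 10 lower, beside 3.27% and 9.95% of all genes. The count of lower genes was 5 without stroke library 1 and 6 without sham library 1, and it was 5 with the compared groups alone, 18 with array weights and 16 against the 6 sham libraries. The ligand Wnt5a had 2447, 1735 and 2390 normalized counts in the stroke libraries and 1580, 1253 and 1305 in the sham libraries (log2 0.66 ± 0.17, adjusted p = 0.01, 0.0596 without stroke library 1). Its stroke effect had been -0.59 ± 0.17 at 24 h, and the times differed by 1.24 ± 0.24 (adjusted p = 0.00274). Wnt11 had 130, 124 and 187 normalized counts in the stroke libraries and 82, 65 and 90 in the sham libraries (log2 0.88 ± 0.28, adjusted p = 0.0347, 0.0675 without sham library 1, 0.131 without sham library 2, 0.0617 without stroke library 1 and 0.149 without stroke library 3) and likewise differed between the times (1.74 ± 0.39, adjusted p = 0.00823). Neither ligand had overlapping groups. The receptors Lrp5 (log2 0.34 ± 0.12, adjusted p = 0.0633) and Lrp6 (log2 -0.03 ± 0.12, adjusted p = 0.893) and the endothelial transcription factor Sox17 (log2 0.43 ± 0.16, adjusted p = 0.0807) were not called against sham surgery, while their effects at 7 days lay above those at 24 h by 0.66 ± 0.17, 0.7 ± 0.17 and 0.9 ± 0.23 (adjusted p = 0.0194, 0.0135 and 0.0189). The lower members included Sfrp1, a secreted Wnt antagonist (11, 13 and 14 after stroke and 70, 72 and 96 after sham surgery, log2 -2.55 ± 0.31, adjusted p = 1.40e-05), the ligand Wnt10a (1, 0 and 3 after stroke and 8, 11 and 18 after sham surgery, log2 -2.67 ± 0.56, adjusted p = 0.00202) and the receptor Lgr6 (3, 0 and 2 after stroke and 18, 10 and 21 after sham surgery, log2 -2.86 ± 0.56, adjusted p = 0.00124), all of low abundance and without overlap. Wnt5a (log2 0.52, adjusted p = 0.0171) and Wnt11 (log2 0.57, adjusted p = 0.124) were not called against the 6 ipsilateral sham libraries, Wnt5a because of the 1.5-fold limit.

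Of the other genes that the study singled out, Itga5, the fibronectin receptor chain, was higher, with 2669, 2177 and 2023 normalized counts in the stroke libraries and 1375, 1251 and 1385 in the sham libraries (log2 0.77 ± 0.15, adjusted p = 0.00123). Matrix metalloproteinase Mmp9 (205, 161 and 55 after stroke and 35, 36 and 86 after sham surgery, log2 1.34 ± 0.51, adjusted p = 0.0779, 0.0355 without sham library 3 and 0.0135 without stroke library 3) and its inhibitor Timp1 (398, 180 and 163 after stroke and 116, 21 and 154 after sham surgery, log2 1.63 ± 0.67, adjusted p = 0.106, 0.0497 without sham library 3) were not called at 7 days, and at 24 h their effects were 2.69 ± 0.51 and 3.47 ± 0.67. The mitophagy kinase Pink1 (log2 -0.06 ± 0.13, adjusted p = 0.793) and the reference gene Hprt (log2 -0.1 ± 0.13, adjusted p = 0.653) had differences near 0. This list of 14 genes was chosen by the study on these samples, so that its 5 higher genes are no independent evidence.

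Pericytes wrap the capillary endothelium. Of 12 pericyte markers 3 were lower (1 without stroke library 1 and 1 without sham library 3) and 0 higher, beside 9.95% of all genes called lower, and the fitted difference was below 0 for all 12 (median -0.41). Vtn, vitronectin, a protein that pericytes supply to the basement membrane, had 17901, 15689 and 15920 normalized counts in the stroke libraries and 35827, 26684 and 37626 in the sham libraries (log2 -1.0 ± 0.2, adjusted p = 0.00162). No stroke library reached the lowest sham library. The pericyte genes Art3 (log2 -0.85 ± 0.23, adjusted p = 0.0128, 0.075 without sham library 3 and 0.0532 without stroke library 1) and Atp13a5 (log2 -0.76 ± 0.23, adjusted p = 0.0253, 0.0514 without sham library 2, 0.113 without sham library 3 and 0.1 without stroke library 1) were also called lower, whereas Rgs5, the most abundant marker, had 43041, 49349 and 45318 normalized counts in the stroke libraries and 53351, 66958 and 75658 in the sham libraries and a difference of -0.5 ± 0.16 (adjusted p = 0.0426) that did not reach the 1.5-fold limit, but did without sham library 1 (log2 -0.64, adjusted p = 0.02). Tagln, a contractile protein of smooth muscle, was not called (log2 -0.48 ± 0.33, adjusted p = 0.358). In the contralateral hemisphere the pericyte list had a median stroke effect of -0.32. For 0 of its genes a difference between the hemispheres was called in the fit, which did not pair them.

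Fibroblast markers were lower in 5 of 12 cases with a median of -0.68, beside 9.95% of all genes called lower, and the count was 3 without sham library 1, 8 with array weights and 3 with the length and GC correction. Igf2, a growth factor of perivascular and meningeal fibroblasts, had 10517, 10020 and 10236 normalized counts in the stroke libraries and 25186, 21900 and 19459 in the sham libraries (log2 -1.1 ± 0.25, adjusted p = 0.00357). The small proteoglycans Lum (242, 264 and 144 normalized counts in the stroke libraries and 673, 398 and 466 in the sham libraries, log2 -1.25 ± 0.29, adjusted p = 0.00477) and Dcn (log2 -1.05 ± 0.28, adjusted p = 0.0116, 0.0769 without sham library 1) of the collagen fibrils were lower too. Apod, an abundant lipocalin of the same cells, was not called and was higher on average (log2 0.74 ± 0.31, adjusted p = 0.113). Contralaterally the list had a median of -0.56, and for 0 of its genes a difference between the hemispheres was called without pairing.

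Of 73 matrix proteins 8 were higher and 13 lower (11% and 17.8%), beside 3.27% and 9.95% of all genes. The number of higher genes was 3 without stroke library 1 and 4 without sham library 2 and that of lower genes 8 without sham library 1. The first was 4 with the compared groups alone and 13 with the length and GC correction, and the second 21 with array weights. Beside Vwf, Ecm1, a glycoprotein of basement membranes, was higher, with 6475, 4130 and 5024 normalized counts in the stroke libraries and 2852, 2247 and 2727 in the sham libraries (log2 0.98 ± 0.14, adjusted p = 5.40e-05), and Emilin2, an elastin-associated protein, differed by 1.6 ± 0.49 (adjusted p = 0.0282, 0.0857 without sham library 1, 0.121 without sham library 2, 0.129 without stroke library 1 and 0.0993 without stroke library 2). The lower genes included the brain proteoglycan Ncan (117, 123 and 244 normalized counts in the stroke libraries and 363, 374 and 657 in the sham libraries, log2 -1.55 ± 0.33, adjusted p = 0.0026) and tenascin R, Tnr (log2 -1.53 ± 0.38, adjusted p = 0.00802), both components of the matrix around neurons, and the collagen Col8a2 (log2 -2.25 ± 0.77, adjusted p = 0.0493, 0.147 without sham library 1, 0.105 without sham library 2, 0.0634 without sham library 3, 0.232 without stroke library 1 and 0.0631 without stroke library 2). Integrins were higher in 7 of 24 cases (3 without stroke library 1 and 4 without sham library 2, and 4 with the compared groups alone), among which Itgax, Itgal and Itgb2 are leukocyte integrins. Of 55 matrix enzymes and inhibitors 1 was higher and 4 were lower (1.82% and 7.27%), below the shares over all genes. Among the lower ones was the membrane-bound metalloproteinase Mmp17 (110, 225 and 154 normalized counts in the stroke libraries and 313, 308 and 296 in the sham libraries, log2 -0.96 ± 0.21, adjusted p = 0.00355). Emilin2 (adjusted p = 0.0671) was not called with the compared groups alone in the fit.

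Cholesterol synthesis supplies membranes and myelin. Of 30 genes 10 were lower and 0 higher, with a median of -0.45, beside 9.95% of all genes. At 24 h the median of the list was 0.35 with 6 genes higher, and 13 genes had a lower effect at 7 days in the test of the times (5.68% of all genes did). Sqle, squalene epoxidase, a rate-limiting enzyme of the pathway, had 151, 186 and 132 normalized counts in the stroke libraries and 321, 362 and 281 in the sham libraries (log2 -1.04 ± 0.21, adjusted p = 0.0014). Its effect at 24 h was 1.37 ± 0.21 (adjusted p = 8.47e-05), and the times differed by -2.41 ± 0.29 (adjusted p = 5.98e-05). Cyp51, lanosterol demethylase, had 309, 289 and 312 normalized counts in the stroke libraries and 511, 562 and 613 in the sham libraries (log2 -0.88 ± 0.11, adjusted p = 1.95e-05) and a difference between the times of -1.67 ± 0.16 (adjusted p = 2.04e-05). The stroke values of both genes lay below all sham values. Scd2, a fatty acid desaturase of brain and oligodendrocytes, had 5370, 5482 and 5791 normalized counts in the stroke libraries and 10165, 9756 and 11711 in the sham libraries (log2 -0.92 ± 0.18, adjusted p = 0.00143). The hemispheres differed for 7 genes of the list, for Sqle by -1.01 ± 0.29 (adjusted p = 0.0296). With all 6 ipsilateral sham libraries of both times as the reference, 5 genes were lower and the median was -0.26.

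**Figure D4:**
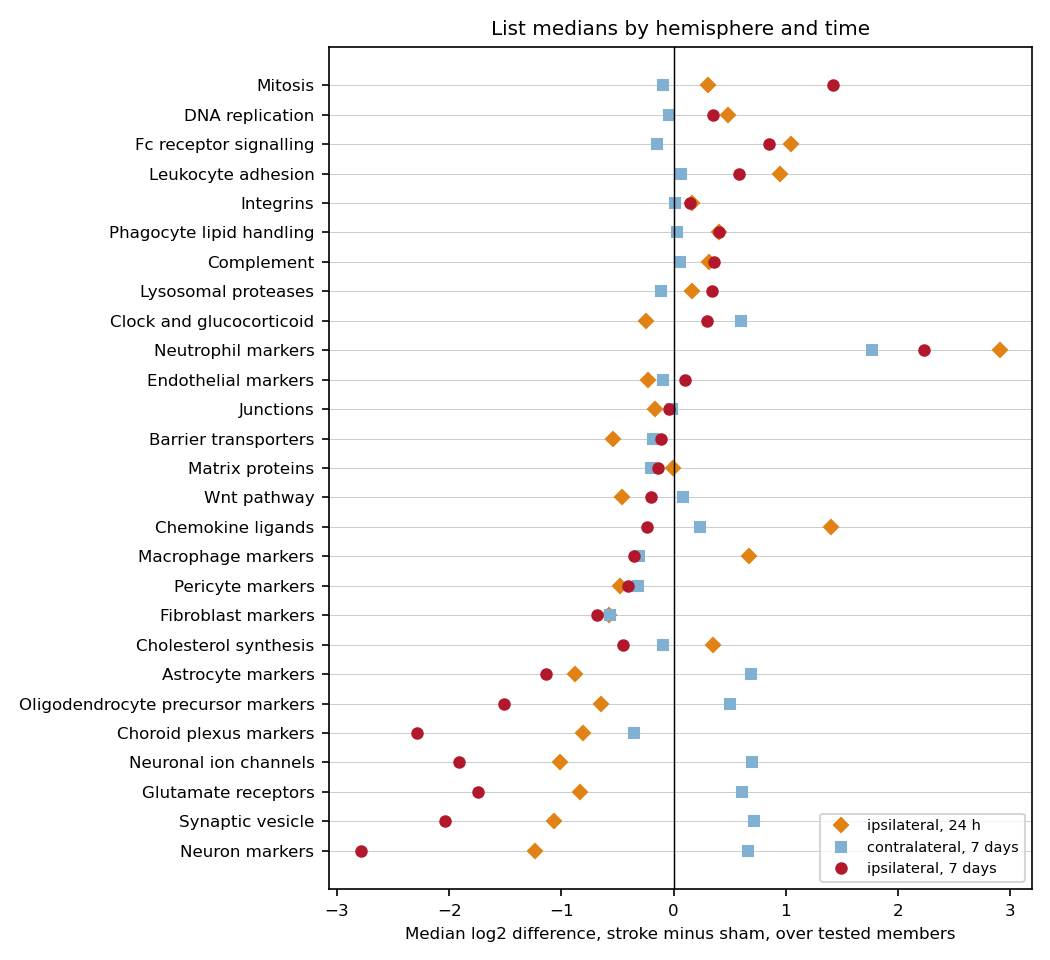
Median log2 difference between stroke and sham over the tested members of 27 lists, for ipsilateral vessels at 7 days (red circles), contralateral vessels at 7 days (blue squares) and ipsilateral vessels at 24 h (orange diamonds). Mitosis genes have a median of 1.42 ipsilaterally at 7 days and lie near 0 contralaterally, while chemokine ligands and cholesterol synthesis are above 0 at 24 h and below 0 at 7 days.

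Of 31 genes controlled by the circadian clock and by glucocorticoids, 4 were higher and 1 was lower ipsilaterally, beside 3.27% and 9.95% of all genes, and the count of higher genes was 2 without sham library 1 and 9 without sham library 3. It was also 8 with array weights, 1 against the 6 sham libraries and 7 with the length and GC correction. The contralateral median of 0.6 was above the ipsilateral one of 0.3. Per2, a repressor of the clock that glucocorticoids induce, had 598, 630 and 827 normalized counts in the stroke libraries and 189, 246 and 280 in the sham libraries (log2 1.52 ± 0.2, adjusted p = 3.08e-05). Its contralateral effect was 1.69 ± 0.2 (adjusted p = 0.000876), one of only 4 genes called higher there, and the hemispheres differed by -0.17 ± 0.29 (adjusted p = 0.825). At 24 h the effect on Per2 was -0.18 ± 0.2, and the times differed by 1.7 ± 0.29 (adjusted p = 0.000955). Ciart, another clock repressor, had 133, 264 and 353 normalized counts in the stroke libraries and 48, 88 and 59 in the sham libraries (log2 1.86 ± 0.36, adjusted p = 0.00106, contralaterally 1.67 ± 0.36). Per2 (log2 0.74, adjusted p = 0.126) and Ciart (log2 0.86, adjusted p = 0.226) were not called against the 6 ipsilateral sham libraries.

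Hif3a, a member of the hypoxia-inducible family that counteracts its relatives, had normalized counts of 761, 536 and 647 after stroke and 145, 149 and 209 after sham surgery (log2 1.95 ± 0.33, adjusted p = 0.000289), with 1.63 ± 0.33 contralaterally and a difference between the times of 2.61 ± 0.46 (adjusted p = 0.00151). Ddit4, an inhibitor of mTORC1 induced by hypoxia and glucocorticoids, differed by 1.38 ± 0.36 (adjusted p = 0.0116, 0.0666 without sham library 1 and 0.0769 without stroke library 1). Npas2, which is expressed in antiphase to Per2 in many tissues, was lower (log2 -1.21 ± 0.28, adjusted p = 0.00545). The hour of the day at which the groups were collected is not given in the labels, and its part in these values was not tested. Besides Ddit4, 5 of 38 hypoxia and glycolysis genes were called and were lower (3 without stroke library 1, 3 without sham library 1, 3 without sham library 2 and 2 without sham library 3), among them Vegfa and the neuronal enolase Eno2 (log2 -2.4 ± 0.41, adjusted p = 0.00037). Over all genes 9.95% were called lower and 3.27% higher. Stress genes were higher in 3 of 35 cases, the ferritin heavy chain Fth1 (127027, 85850 and 77181 normalized counts in the stroke libraries and 47411, 40779 and 53073 in the sham libraries, log2 1.01 ± 0.19, adjusted p = 0.000765), the plasma glutathione peroxidase Gpx3 (log2 1.22 ± 0.34, adjusted p = 0.0175, 0.0896 without sham library 2 and 0.0988 without stroke library 1) and the pseudokinase Trib3 (log2 0.77 ± 0.16, adjusted p = 0.00239). Lower were the cystine transporter Slc7a11, with 772, 550 and 703 normalized counts in the stroke libraries and 3075, 1800 and 2028 in the sham libraries (log2 -1.74 ± 0.21, adjusted p = 1.52e-05), and the extracellular superoxide dismutase Sod3 (log2 -0.74 ± 0.19, adjusted p = 0.0113, 0.0697 without sham library 3). Hif3a (log2 1.13, adjusted p = 0.0559), Npas2 (log2 -0.79, adjusted p = 0.0513), Gpx3 (log2 0.47, adjusted p = 0.452) and Trib3 (log2 0.53, adjusted p = 0.0234) were not called against the 6 ipsilateral sham libraries, Trib3 because of the 1.5-fold limit. Fth1 (adjusted p = 0.0758) was not called with the compared groups alone in the fit.

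Several of the 12 genes with the largest rise among those with a mean of at least 50 encode secreted proteins. Scgb3a1, a small secreted uteroglobin, had 4942, 2006 and 1424 normalized counts in the stroke libraries and 56, 94 and 207 in the sham libraries (log2 4.54 ± 0.57, adjusted p = 1.80e-05). The lowest stroke library was several times above the highest sham library. Its contralateral effect of 2.54 ± 0.57 was not called, and the times differed by 3.05 ± 0.81 (adjusted p = 0.021). Chil3, a chitinase-like protein of myeloid cells, had 1790, 673 and 364 normalized counts in the stroke libraries and 72, 48 and 101 in the sham libraries (log2 3.41 ± 0.66, adjusted p = 0.00108), and Lao1, an L-amino acid oxidase, had 1758, 1064 and 1401 normalized counts in the stroke libraries and 163, 91 and 512 in the sham libraries (log2 2.8 ± 0.57, adjusted p = 0.00169). Best1, a chloride channel, was 644, 439 and 208 after stroke and 114, 51 and 60 after sham surgery (log2 2.45 ± 0.42, adjusted p = 0.000318). For these 4 genes no stroke library overlapped a sham library, and the calls held with each library left out. Contralaterally their effects were between 1.23 and 2.54 without a call.

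The other genes with the largest rise had a wide spread. Itih4, an acute phase protein, had 885, 211 and 181 normalized counts in the stroke libraries and 49, 2 and 61 in the sham libraries (log2 3.95 ± 1.18, adjusted p = 0.0243, 0.16 without sham library 2 and 0.125 without stroke library 1). Lpin3, a phosphatidate phosphatase, was 959, 354 and 408 after stroke and 87, 39 and 189 after sham surgery (log2 2.57 ± 0.68, adjusted p = 0.012, 0.0763 without sham library 2 and 0.0762 without stroke library 1). The fucosyltransferase Fut2 was 276, 132 and 107 after stroke and 45, 6 and 66 after sham surgery (log2 2.51 ± 0.85, adjusted p = 0.0472, 0.0527 without sham library 1, 0.265 without sham library 2, 0.181 without stroke library 1, 0.0742 without stroke library 2 and 0.06 without stroke library 3). AA467197, a small mitochondrial protein, was 196, 38 and 61 after stroke and 8, 1 and 20 after sham surgery (log2 3.43 ± 1.14, adjusted p = 0.0425, 0.0766 without sham library 1, 0.198 without sham library 2, 0.184 without stroke library 1 and 0.0732 without stroke library 3). In these 4 genes sham library 2 was the lowest library. Doc2b, a calcium sensor of exocytosis, overlapped between the groups (1955, 1011 and 1790 normalized counts in the stroke libraries and 254, 243 and 1062 in the sham libraries, log2 1.91 ± 0.58, adjusted p = 0.0278, 0.122 without sham library 1, 0.126 without sham library 2, 0.106 without stroke library 1 and 0.0817 without stroke library 3). Itih4 (log2 2.54, adjusted p = 0.113), Fut2 (log2 1.75, adjusted p = 0.111), AA467197 (log2 2.66, adjusted p = 0.0615) and Doc2b (log2 1.31, adjusted p = 0.089) were not called against the 6 ipsilateral sham libraries. Itih4 (adjusted p = 0.0679), Fut2 (adjusted p = 0.0904) and Doc2b (adjusted p = 0.0656) were not called with the compared groups alone in the fit.

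**Figure D5:**
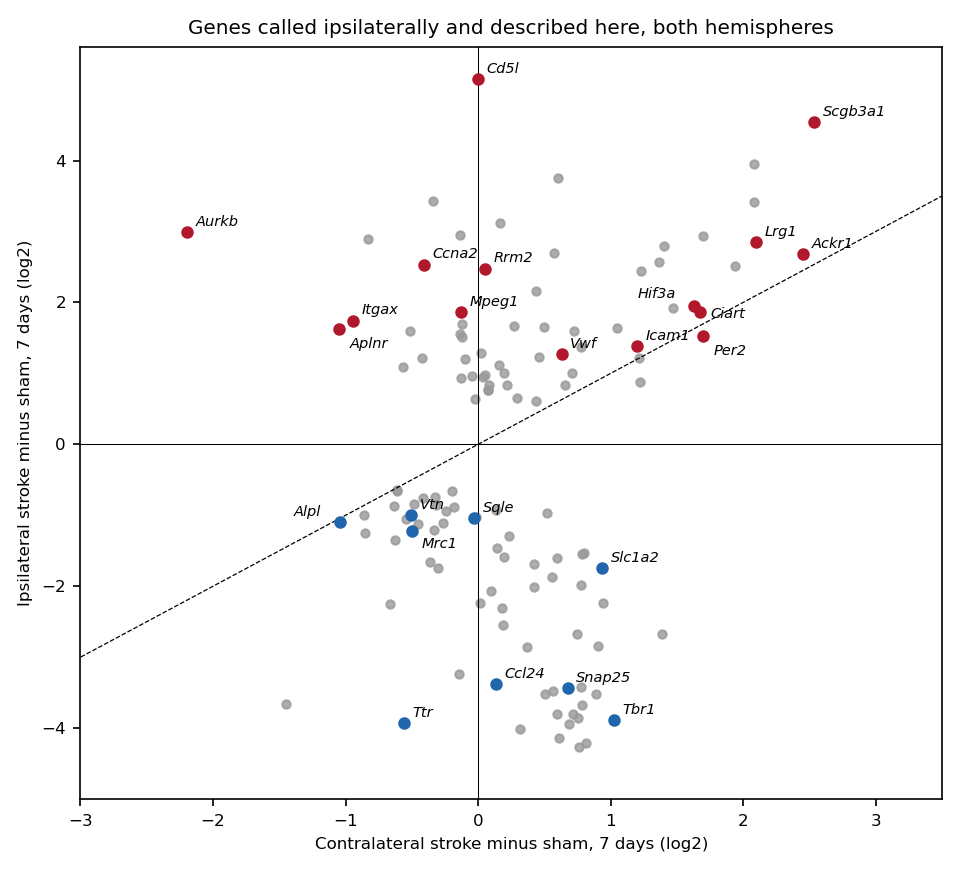
Log2 difference between stroke and sham at 7 days in contralateral (horizontal axis) and ipsilateral vessels (vertical axis) for the genes called ipsilaterally and described here, with some labelled (red higher, blue lower ipsilaterally) and a dashed line where both are equal. Per2, Ciart, Hif3a, Icam1 and Ackr1 lie near the line, Cd5l, Mpeg1 and Rrm2 rise on the injured side with a contralateral difference near 0, and neuronal genes such as Snap25 and Tbr1 are below 0 ipsilaterally and above 0 contralaterally.

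Neuronal transcripts, which the vessel preparation carries along, were lower. Of 16 neuron markers 15 were lower, with a median of -2.78, beside 9.95% of all genes. Glutamate receptor genes were lower in 20 of 24 cases, receptors for GABA and glycine in 14 of 18, synaptic vesicle genes in 37 of 43 and neuronal channels in 31 of 46, and none of the 4 lists held a gene called higher. The summed neuron markers were 3533, 4087 and 5499 after stroke and 12950, 16215 and 20808 after sham surgery. Snap25, a protein of the vesicle fusion machinery, had 83, 104 and 127 normalized counts in the stroke libraries and 948, 1232 and 1231 in the sham libraries (log2 -3.44 ± 0.32, adjusted p = 1.65e-06), and Syt1, the calcium sensor of transmitter release, had 73, 83 and 180 normalized counts in the stroke libraries and 1004, 1624 and 1856 in the sham libraries (log2 -3.8 ± 0.39, adjusted p = 3.24e-06). The groups were far apart for both. Camk2a, the abundant kinase of excitatory synapses, had 584, 545 and 745 normalized counts in the stroke libraries and 3588, 3908 and 6286 in the sham libraries (log2 -2.84 ± 0.35, adjusted p = 1.35e-05), and Map2 of dendrites differed by -1.98 ± 0.32 (adjusted p = 0.000189). The exception was Stmn2, with 1769, 2095 and 1944 normalized counts in the stroke libraries and 1733, 1993 and 1783 in the sham libraries (log2 0.08 ± 0.2, adjusted p = 0.845).

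Both excitatory and inhibitory genes were lower. Grin2a, an NMDA receptor subunit, was 9, 10 and 18 after stroke and 119, 137 and 187 after sham surgery (log2 -3.51 ± 0.33, adjusted p = 1.68e-06) and Gria2, an AMPA receptor subunit, differed by -2.68 ± 0.29 (adjusted p = 4.78e-06). Gad2, the enzyme that makes GABA, differed by -3.52 ± 0.51 (adjusted p = 7.83e-05). The 12 largest decreases included Syt1 and the choroid plexus gene Ttr. Among them, too, Tbr1, a transcription factor of cortical excitatory neurons, was 6, 4 and 6 after stroke and 73, 84 and 124 after sham surgery (log2 -3.88 ± 0.41, adjusted p = 4.67e-06). The potassium channels Kcnj3 (0, 5 and 20 after stroke and 66, 109 and 121 after sham surgery, log2 -4.27 ± 0.69, adjusted p = 0.000212) and Kcnj9 (log2 -4.21 ± 0.62, adjusted p = 8.47e-05) and the receptor Gpr158 (log2 -4.14 ± 0.46, adjusted p = 5.79e-06) had the largest decreases among genes with a mean of at least 50. Others were the neuronal factor Myt1l (log2 -3.94 ± 0.45), the host gene Mir124a-1hg of a neuronal miRNA (log2 -4.02 ± 0.39), the active zone protein Rimbp2 (log2 -3.85 ± 0.4), Brinp1 (log2 -3.67 ± 0.46) and the activity-induced Arc (12, 33 and 29 after stroke and 169, 247 and 856 after sham surgery, log2 -3.8 ± 0.55), with adjusted p-values of 7.56e-06, 2.63e-06, 4.03e-06, 1.62e-05 and 7.65e-05.

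Contralaterally the neuron markers had a median stroke effect of 0.67 without a call, and 14 of 16 differed between the hemispheres. In that hemisphere 1 stroke library had a neuron sum of 36828, and the other two were at 16154 and 14871 against 10972 to 15124 after sham surgery. Leaving out this contralateral library took the number of genes whose stroke effect differed between the hemispheres from 1573 to 1118. At 24 h the ipsilateral median of the neuron list was -1.23, and 7 of the 16 genes had a lower effect at 7 days.

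Part of the transcripts of glia were lower as well. Of 13 astrocyte markers 6 were lower (median -1.14, -0.57 without sham library 3), beside 9.95% of all genes called lower. The fitted difference was above 0 for 2 of the 13, reaching 1.44. A wider list of endfoot and reactive astrocyte genes had 6 of 37 lower and 0 higher. Its median was 0.03, with 19 genes above 0 and differences of up to 2.31. Slc1a2, the main glutamate transporter of astrocytes, had 2927, 2742 and 4007 normalized counts in the stroke libraries and 8742, 8355 and 16491 in the sham libraries (log2 -1.74 ± 0.31, adjusted p = 0.000423), and its relative Slc1a3 had 705, 688 and 805 normalized counts in the stroke libraries and 2344, 1867 and 2993 in the sham libraries (log2 -1.69 ± 0.22, adjusted p = 2.18e-05). Both were below the sham range in every stroke library. The transcription factor Sox9 (log2 -1.58 ± 0.26, adjusted p = 0.000236) and the amino acid transporter Slc7a10 (log2 -1.6 ± 0.5, adjusted p = 0.0311, 0.0698 without sham library 1, 0.149 without sham library 3, 0.171 without stroke library 1 and 0.0883 without stroke library 2) were lower as well, and the gap junction protein Gja1 was not called (1717, 1003 and 1032 normalized counts in the stroke libraries and 1712, 1678 and 4905 in the sham libraries, log2 -1.0 ± 0.43, adjusted p = 0.123). Oligodendrocyte precursor markers were lower in 7 of 12 cases (4 without stroke library 1 and 4 with the compared groups alone), beside the same 9.95% of all genes. Among them were the lineage factors Sox10 (10, 17 and 26 after stroke and 53, 91 and 111 after sham surgery, log2 -2.23 ± 0.45, adjusted p = 0.00147) and Olig2 (6, 9 and 17 after stroke and 41, 37 and 37 after sham surgery, log2 -1.86 ± 0.41, adjusted p = 0.00341). Pdgfra, the receptor of precursors and fibroblasts, was not called (log2 -0.94 ± 0.36, adjusted p = 0.0822, 0.0329 without sham library 3), and Vcan, a proteoglycan on the same list that myeloid and vascular cells also express, was higher (log2 0.84 ± 0.26, adjusted p = 0.0316, 0.129 without sham library 2, 0.0636 without sham library 3 and 0.221 without stroke library 1). Slc7a10 (adjusted p = 0.114) and Vcan (adjusted p = 0.135) were not called with the compared groups alone in the fit.

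Myelin genes were lower in 7 of 28 cases (2 without stroke library 1, 4 without sham library 2 and 4 without sham library 3) and oligodendrocyte markers in 4 of 13 (1 without stroke library 1, 2 without stroke library 2, 2 without stroke library 3, 2 without sham library 2 and 2 without sham library 3), beside 9.95% of all genes. With the compared groups alone in the fit 4 myelin genes and 2 oligodendrocyte markers were lower. Fa2h, which makes the hydroxylated lipids of myelin, was 12, 5 and 13 after stroke and 30, 52 and 80 after sham surgery (log2 -2.31 ± 0.46, adjusted p = 0.00138), and the myelin protein Mog differed by -1.3 ± 0.37 (adjusted p = 0.0178, 0.0872 without sham library 3, 0.0738 without stroke library 1 and 0.0555 without stroke library 2). The abundant Mal, with 31755, 16726 and 22917 normalized counts in the stroke libraries and 13797, 11108 and 27716 in the sham libraries, did not differ beyond the error (log2 0.51 ± 0.36, adjusted p = 0.391). Choroid plexus markers were lower in 8 of 15 cases, but the count was 0 without stroke library 1, 3 without stroke library 3, 2 without sham library 1, 3 without sham library 2 and 3 without sham library 3, and 5 with array weights. Ttr, transthyretin, the main product of choroid plexus epithelium, had 556, 2804 and 2056 normalized counts in the stroke libraries and 27838, 15074 and 26956 in the sham libraries (log2 -3.93 ± 1.06, adjusted p = 0.0142, 0.0871 without stroke library 1). Every stroke library held several times less Ttr than any sham library. Kcnj13, a channel of the same epithelium, was 2, 20 and 16 after stroke and 119, 82 and 88 after sham surgery (log2 -3.23 ± 0.85, adjusted p = 0.0114, 0.0906 without stroke library 1) and Sostdc1 was 1, 8 and 5 after stroke and 73, 51 and 55 after sham surgery (log2 -3.65 ± 1.07, adjusted p = 0.0222, 0.0665 without sham library 1, 0.05 without sham library 3 and 0.114 without stroke library 1), while Kl (log2 -2.06 ± 0.77, adjusted p = 0.0715) and F5 (log2 0.23 ± 0.37, adjusted p = 0.735) were not called. Ipsilateral choroid plexus sums were 1413, 4300 and 2997 after stroke and 30566, 17078 and 28830 after sham surgery. Contralateral sums ranged from 3436 to 44799 after sham surgery and from 3751 to 19478 after stroke, and these ranges overlapped. The part of carried-over tissue in the ipsilateral result was not tested. Hemoglobin transcripts overlapped between the groups, with Hbb-bs at 18672, 10295 and 1913 after stroke and 12619, 25045 and 41919 after sham surgery (log2 -1.72 ± 1.04, adjusted p = 0.291).

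The stroke effect at 7 days differed between the hemispheres for 1573 genes (9.84%), 190 (1.19%) with the higher and 1383 (8.65%) with the lower effect ipsilaterally. In the contralateral hemisphere 4 genes (0.025%) were higher and 1 (0.00626%) lower after stroke, 5 in all (0.0313%), beside an unadjusted p under 0.05 for 1639 genes (10.3%). Of the 523 genes called higher ipsilaterally, 122 differed between the hemispheres in the same direction, and of the 1591 lower genes 1223 did. The higher genes had a median contralateral effect of 0.20 and the lower genes of 0.53. Between 7 days and 24 h, 1297 genes (8.12%) differed in their ipsilateral effect, 389 with a higher and 908 with a lower effect at 7 days. This number was 801 without the first stroke library and 782 without the first sham library of the 24 h groups. Among the 523 higher genes 98 had a higher and 7 a lower effect at 7 days than at 24 h, and among the 1591 lower genes 273 had a lower and 0 a higher effect. Both contrasts contain the ipsilateral difference at 7 days by which these genes were called. Agreement in direction is therefore partly built in and is no independent evidence.

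Of 128 tested ribosomal genes of the KEGG term Ribosome 1 was higher and 0 lower, although the fitted difference was above 0 for 121 of them (median 0.33, contralaterally 0.01). Many of these genes have near-identical copies, so reads that matched several genes were not counted and their levels are uncertain. At 24 h 49 had been higher. Proteasome genes, which encode the protein-degrading complex, were higher in 1 of 43 cases at 7 days and in 36 at 24 h, and 22 had a lower effect at 7 days in the test of the times, beside 5.68% of all genes. For oxidative phosphorylation 2 of 109 genes were higher and 3 lower, against 24 higher genes at 24 h. The counts of these 3 terms stand beside 3.27% higher and 9.95% lower over all genes at 7 days. At 24 h 10% of all tested genes were called higher.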

How the data were processed

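The series holds 24 libraries of vessels from mouse hemispheres, in 8 groups of 3 (stranded mRNA libraries), after the authors left out samples as outliers. The authors aligned the reads with STAR (2.5.2b in the submitters' processing notes, where the methods name another version) to mm10 (GRCm38), counted them per gene with featureCounts 1.5.1 without reads that matched several genes, and divided the counts by DESeq2 size factors (1.6.2 in the notes). The deposited values are these normalized counts rounded to whole numbers, treated here as a score and not as raw reads, so no count model was run. The deposited table also holds gene identifiers, positions and annotation terms, and no comparison of the authors. All 24 columns of library values were mapped by name.

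Log2(normalized count + 1) was fitted with limma 3.58.1 (R 4.3.3) with a mean-variance trend, 8 group means and no replicate block. The fit covered 15982 of 17270 genes with a mean above 5 over the 24 libraries, a threshold of the study. Stroke libraries count in this mean, so scarce genes such as Aurkb, Tk1, Cst7 and Cd5l could pass through them. Differences between hemispheres and times were contrasts of the same fit, without pairing the hemispheres of the same number. Calls needed an adjusted p under 0.05 and a difference above 1.5-fold. The comparison, the gene lists and the alternatives were chosen with earlier results of these data known. Named were the 12 largest increases and decreases (mean of at least 50, no overlap), up to 3 called members per list and direction, the genes the study named, the 3 most abundant markers per cell type, and the 5 largest differences between hemispheres or times, and some genes that this rule names are not reported here. In simulated data with the same groups, 100 genes were changed by log2 1 and 100 by log2 2, and genes were drawn independently of each other. Of these 57% and 82% were called, with 5 of 15759 unchanged genes. The data hold more called genes and variation that many genes of a library share, so these rates need not hold for them. Totals of 15924780 to 18787932 normalized counts per library hide the raw depth, so precision rests on the spread between libraries. Promoters came from RefSeq (GRCm38.p6). Alternatives were another pseudocount, filters on low values, median centring, replicate or pool blocks, the compared groups alone, array weights, no trend, other fold limits, 6 sham libraries as the reference, a correction for length and GC, and leaving out each library.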

Additional observations from a re-analysis of the deposited data

Results flagged for a closer look

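The stroke effect differed by a test of the difference itself for 1573 genes between the hemispheres at 7 days and for 1297 genes between 7 days and 24 h (limma, Benjamini-Hochberg adjusted). Genes called ipsilaterally with a mean of at least 50 normalized counts over the 24 libraries are ranked here, and scarcer genes such as Aurkb (5.18), Cd5l (5.15) and Ccna2 (2.94) had larger differences between the hemispheres. Among the ranked genes, the effect lay most above the contralateral one for the apelin receptor Aplnr (a difference of 2.67 on the log2 scale), the phagosomal Mpeg1 (1.99), the adaptor Samsn1 (1.65), the integrin Itgb2 (1.64) and the receptor Clec7a (1.63). The contralateral effects of these genes, which enter the differences, were -1.05, -0.13, -0.57, -0.12 and -0.42, and that of Aurkb was -2.2. The ipsilateral effect lay most below the contralateral one for the potassium channels Kcnj3 (-5.03) and Kcnj9 (-5.03) and for the neuronal genes Tbr1 (-4.91), Gpr158 (-4.74) and Myt1l (-4.62). Beside these neuronal values stands the neuron marker sum of 36828 in 1 contralateral stroke library, of which the part in the result was not tested.

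Between the times, and with the same minimum mean, under which Cd5l (4.28) is again left out, the effect at 7 days lay most above that at 24 h for Scgb3a1 (3.05), Clca3a1 (2.85), Doc2b (2.65), Hif3a (2.61) and Ccl19-ps1 (2.39). Clca3a1 had 191, 71 and 157 normalized counts in the stroke libraries and 77, 39 and 22 in the sham libraries (log2 1.64 ± 0.53, adjusted p = 0.0358 in limma, 0.0881 without sham library 2, 0.163 without sham library 3, 0.155 without stroke library 1 and 0.107 without stroke library 3). Ccl19-ps1 is a near-identical copy of a chemokine gene, so its reads are uncertain, and it was called at 1.11 ± 0.36 (adjusted p = 0.0355 in limma, 0.192 without sham library 2, 0.154 without stroke library 1 and 0.108 without stroke library 2). The effect lay most below that at 24 h for Ccl7 (-5.99), Mir124a-1hg (-3.86), Trank1 (-3.47), Sh2d5 (-3.23) and Kcnj9 (-3.11). Trank1 had 4, 16 and 25 normalized counts in the stroke libraries and 143, 167 and 124 in the sham libraries (log2 -3.47 ± 0.5, adjusted p = 7.20e-05 in limma), and Sh2d5 had 21, 12 and 16 normalized counts in the stroke libraries and 86, 59 and 97 in the sham libraries (log2 -2.24 ± 0.34, adjusted p = 0.000107 in limma), with no overlap in either gene. Clca3a1 (log2 0.8, adjusted p = 0.329) and Ccl19-ps1 (log2 0.33, adjusted p = 0.629) were not called against the 6 ipsilateral sham libraries (limma). Clca3a1 (adjusted p = 0.0841) and Ccl19-ps1 (adjusted p = 0.123) were not called with the compared groups alone in the fit (limma).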

How the results depend on the processing

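Against 523 higher genes, 325 were called with only the compared groups in the fit, 1039 with the correction for length and GC, 970 without a limit on the fold and 279 with a log2 limit of 1, and 329 to 559 with 1 library left out. The count of 1591 lower genes stayed within 1.5 times under every alternative run, with 1131 to 1570 when 1 library was left out. For the difference between hemispheres (1573 genes), leaving out 1 library gave 1118 to 1780. For the difference between times (1297 genes), 1971 genes were called with array weights, 684 with a log2 limit of 1, and 782 to 1444 with 1 library left out. Why these counts moved was not tested, except that a stricter or absent fold limit changes them by construction.

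Same-numbered stroke and sham ipsilateral libraries had residual correlations of -0.017, 0.15 and -0.157, and 1 of 6 libraries correlated best with its own number, so the numbers were not taken as pairs. A block for the library number gave 540 higher and 1560 lower genes, and with the compared groups alone and the block 261 genes were higher and 770 differed between hemispheres. Hemispheres with the same number had correlations of 0.059 to 0.467. Between hemispheres 6 of 6 libraries correlated best with their own number, after stroke and after sham surgery alike. The hemisphere tests given above did not use this pairing and called 1573 genes. With the mouse pool as a random block 2202 genes differed between hemispheres. A hemisphere difference that was not called above can therefore be called with the block.

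Of 127 named genes that were called, 78 kept their call with each of the 6 compared libraries left out. The calls of 24 were lost against the 6 ipsilateral sham libraries of both times and those of 22 with the compared groups alone, with 9 lost under array weights, 8 without the mean-variance trend and 6 with the length and GC correction. These signs turned. The median of the matrix protein list became 0.139 with the length and GC correction and ranged from -0.222 to 0.01 (without sham library 1) with 1 library left out. That of the barrier transporters became 0.065 with the correction and ranged from -0.191 to 0.018 (without sham library 2), and that of the hypoxia list ranged from -0.232 to 0.026 (without sham library 3). The median of the angiogenesis list ranged from -0.003 to 0.165 and that of the stress list from -0.009 to 0.231 with 1 library left out, both lowest without sham library 2. Lrp6 had a log2 difference of 0.27 with the length and GC correction, 0.01 with median centring and -0.14 to 0.03 with 1 library left out. Ocln had -0.01 with array weights, -0.06 against 6 sham libraries and -0.03 to 0.07 with 1 library left out. Pink1 had 0.09 with the length and GC correction and -0.17 to 0.03 with 1 library left out, and Hprt had 0.03 against 6 sham libraries. The unknown raw depth limits the genes of a few normalized counts, for which counting error cannot be given.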
